A study of Homo sapiens with 4 samples.

Results

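A set of 10 transcription factors that specify airway epithelium was followed in BEAS-2B, an established line of human bronchial epithelium immortalised with viral T antigen, by taking every gene of the deposited count table whose symbol was NKX2-1, FOXA1, FOXA2, SOX2, SOX9, TP63, GRHL2, ELF3, EHF or FOXJ1. All 10 were found, each as 1 row among 39634 genes with values. The series compared cells carrying a control short hairpin RNA (shRNA; genotype CTL) with cells carrying an shRNA against Fer (genotype Fer knockdown), all in N2B27 medium, with 2 poly(A) RNA-seq libraries per group. FER encodes a cytoplasmic tyrosine kinase. The labels give neither the number of hairpins used nor the time after their delivery. They do not say whether replicates were separate cultures, and every p-value is therefore based on the spread between these libraries alone, which may be technical.

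The factors act at successive steps of lung epithelial development. NKX2-1 marks the lung field and distal epithelium, and FOXA1 and FOXA2 are forkhead pioneer factors of foregut endoderm that can open closed chromatin. SOX2 is the factor of the conducting airway, SOX9 that of the distal budding tips, TP63 that of basal stem cells, and FOXJ1 that of motile cilia. GRHL2, ELF3 and EHF maintain the epithelial state itself, through junction and differentiation genes.

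In BEAS-2B the set was split between 2 abundant factors, a few at low level, and several with almost no reads. SOX9 and FOXA1 were the abundant ones, ELF3 and FOXJ1 were low, EHF lay near 1 CPM (read counts scaled to library size), and TP63, SOX2, GRHL2, FOXA2 and NKX2-1 gave between 0 and 19 reads over all 4 libraries. A gene was called expressed at 1 CPM or more in every library and silent below 0.1 CPM in every library, with anything else called trace level. By that rule 4 factors were expressed, 3 were at trace level and 3 were silent. In the whole table, where 15655 genes had 0 counts in every library, the shares were 33.0%, 18.3% and 48.6%. None of the 5 factors that had enough reads to be tested passed the threshold between the libraries labelled Fer knockdown and control.

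**Figure D1:**
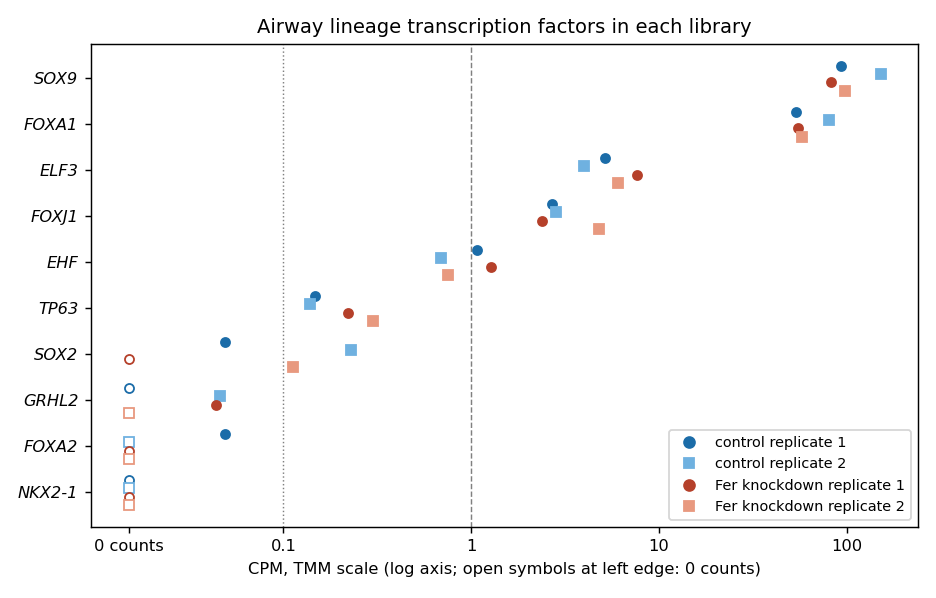
CPM on a log axis for each of the 10 factors, 1 symbol per library, with the limits of 1 CPM (dashed) and 0.1 CPM (dotted), and open symbols at the left edge for 0 counts. SOX9 and FOXA1 lie between 53.4 and 152 CPM in every library, and NKX2-1 lies at 0 counts in all 4.

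Upstream sequence is shown for factors from both ends of this range, as RefSeq places their start sites on GRCh38.p14, each written 5′ to 3′ on the gene's own strand and limited to the stretch that no annotated exon of the same gene covers. RefSeq windows of 250 bases before a start site matched 6 of the 10 factors, with 8 windows in all. Capitals mark CAGGTG or its reverse complement CACCTG, the E-box variant bound by ZEB and SNAI repressors, and TGTTTAC or its reverse complement GTAAACA, a core sequence of FOXA factors. FOXA1 is the expressed example (chr14:37595349-37595499, minus strand), EHF the factor near 1 CPM (chr11:34632316-34632463, plus strand), and TP63 (chr3:189631139-189631388, plus strand), SOX2 (chr3:181711675-181711923, plus strand) and NKX2-1 (chr14:36520287-36520482, minus strand) the factors with few or no reads.
FOXA1: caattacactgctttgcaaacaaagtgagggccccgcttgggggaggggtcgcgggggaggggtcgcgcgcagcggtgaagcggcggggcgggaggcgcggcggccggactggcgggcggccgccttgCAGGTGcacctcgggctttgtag
EHF: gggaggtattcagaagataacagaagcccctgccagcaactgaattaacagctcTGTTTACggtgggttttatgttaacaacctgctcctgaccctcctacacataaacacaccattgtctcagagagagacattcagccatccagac
TP63: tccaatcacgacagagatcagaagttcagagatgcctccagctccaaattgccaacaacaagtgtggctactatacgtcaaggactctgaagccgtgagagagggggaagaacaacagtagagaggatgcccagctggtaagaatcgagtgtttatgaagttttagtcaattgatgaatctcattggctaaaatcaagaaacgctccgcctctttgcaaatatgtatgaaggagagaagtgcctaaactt
SOX2: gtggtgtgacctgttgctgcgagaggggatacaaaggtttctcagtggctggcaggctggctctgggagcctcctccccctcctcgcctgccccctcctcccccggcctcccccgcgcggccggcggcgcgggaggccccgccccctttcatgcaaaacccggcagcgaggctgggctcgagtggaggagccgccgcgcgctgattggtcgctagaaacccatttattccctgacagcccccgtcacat
NKX2-1: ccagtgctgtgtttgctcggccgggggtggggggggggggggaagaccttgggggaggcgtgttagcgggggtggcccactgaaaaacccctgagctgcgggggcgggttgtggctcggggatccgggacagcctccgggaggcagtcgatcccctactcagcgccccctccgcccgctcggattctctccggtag

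The CpG content of FOXA1 and ELF3, the expressed factors with windows, lay on either side of that of NKX2-1, the silent factor with windows. Over the full 250 bases, FOXA1 held 26 CpG dinucleotides, SOX2 held 20 and the window of NKX2-1 shown above held 18, against a median of 11 over 35116 windows of the same length. ELF3 held 4, in a window that annotated exons of ELF3 covered over all 250 bases, unlike the stretches shown above. TP63, at trace level, held 6, the second NKX2-1 window held 7, and the EHF windows held 4 and 2. The E-box occurred in the windows of FOXA1 and ELF3, and in 17.5% of all windows. The FOXA core occurred in the printed EHF stretch and in the second NKX2-1 window, and in 2.98% of all windows. The other EHF window, not printed and free of annotated EHF exons over all 250 bases, held neither sequence. A match is only a match of letters.

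SOX9, an HMG-box factor of the lung bud tips that also drives cartilage, was the most abundant member. SOX9 (ENSG00000125398, chromosome 17) had 1902 and 3291 counts in control, and 1871 and 2602 in the libraries labelled Fer knockdown. Scaled, these were 93.0 and 152 CPM against 82.4 and 98.0 CPM. Control replicate 2 stood above the other 3 libraries, and control replicate 1 lay between the 2 libraries labelled Fer knockdown, so the groups overlapped. Per transcript length it reached 56.1 to 91.2 TPM (counts scaled to gene length and library size), above 92.8% of genes with any read.

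FOXA1 was the other abundant factor. FOXA1 (ENSG00000129514, chromosome 14) had 1092 and 1742 counts in control and 1250 and 1539 in the libraries labelled Fer knockdown, or 53.4 and 80.3 CPM against 55.0 and 57.9 CPM. Again control replicate 2 was the highest library and the other 3 lay close together. Its level of 28.7 to 43.0 TPM was above 86.4% of detected genes. SOX9 exceeded FOXA1 in TPM in 4 of 4 libraries, by 1.68-fold to 2.12-fold.

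ELF3 and FOXJ1 formed the next step down. FOXA1 exceeded FOXJ1 by 7.10-fold to 16.7-fold in TPM. ELF3, an epithelium-specific ETS factor (ENSG00000163435, chromosome 1), had 105 and 87 counts in control and 173 and 160 in the libraries labelled Fer knockdown, or 5.14 and 4.01 CPM against 7.62 and 6.02 CPM. Both libraries labelled Fer knockdown lay above both controls. ELF3 shares 18.5% of its exonic bases with other genes, chiefly the antisense gene ELF3-AS1, which had 108, 123, 149 and 119 counts in the same order of libraries. The strand setting of the counting is not given in the sources used here, so the origin of reads in the shared bases cannot be told.

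FOXJ1, the master regulator of motile ciliogenesis (ENSG00000129654, chromosome 17), had 55 and 61 counts in control and 54 and 127 in the libraries labelled Fer knockdown. That is 2.69 and 2.81 CPM against 2.38 and 4.78 CPM, with replicate 2 of Fer knockdown alone above the rest. The order of FOXJ1 and ELF3 was not resolved, since FOXJ1 was higher in TPM in 3 of 4 libraries and the ranges overlapped. EHF, the ETS relative of ELF3 (ENSG00000135373, chromosome 11), followed with 22 and 15 counts in control and 29 and 20 in the libraries labelled Fer knockdown. These were 1.08 and 0.692 CPM against 1.28 and 0.753 CPM, so EHF passed 1 CPM in replicate 1 of each group only. ELF3 exceeded it 4.39-fold to 7.37-fold in TPM.

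The remaining 5 factors gave too few reads to be tested. TP63 (ENSG00000073282, chromosome 3) had 3 and 3 counts in control and 5 and 8 in the libraries labelled Fer knockdown. SOX2 (ENSG00000181449, chromosome 3) had 1, 5, 0 and 3 counts, with the controls first. GRHL2 (ENSG00000083307, chromosome 8) had 1 count in control replicate 2 and 1 in replicate 1 of Fer knockdown. FOXA2 (ENSG00000125798, chromosome 20) had 1 count, in control replicate 1, and NKX2-1 (ENSG00000136352, chromosome 14) had 0 in every library. A count of 0 allows up to 3 counts, which is 0.113 to 0.147 CPM in these libraries, and over all 4 libraries together the exact Poisson 95% interval for NKX2-1 ran from 0 to 0.0404 CPM. For TP63 the interval over all libraries was 0.125 to 0.325 CPM, and for SOX2 0.0450 to 0.187 CPM. These intervals cover counting error only.

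Genes lying across or next to NKX2-1, SOX2 and FOXA1 ranged from silent to expressed. They were chosen by position after the factors' values were seen. NKX2-1-AS1, antisense to NKX2-1, had 0 counts in all libraries, and SOX2-OT, the long non-coding RNA around SOX2, had 1 count in total. NKX2-1 and FOXA1 lie on the same chromosome with 4 protein-coding genes of the table between them. Next to NKX2-1, the homeobox gene NKX2-8 had 6, 0, 0 and 10 counts. PAX9, a paired-box factor of foregut derivatives, had 436, 604, 401 and 466 counts, or 21.3, 27.9, 17.7 and 17.5 CPM. SLC25A21 and MIPOL1, nearer to FOXA1, lay between 0.978 and 4.76 CPM. TTC6, which overlaps FOXA1 on the opposite strand, was expressed, with 62, 94, 68 and 130 counts.

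Several factors that were silent or at trace level had a family relative that was expressed. The relatives named here beyond SOX12, ELF4 and SOX13 were chosen after their values were seen. GRHL2 was silent while GRHL3, a grainyhead factor of surface epithelium, reached 11.2 to 13.6 TPM, and GRHL1 averaged 1.04 TPM. TP63 averaged 0.0782 TPM while TP73 reached 10.6 to 13.9 TPM. SOX2 averaged 0.101 TPM beside SOX12 at 68.3 and SOX4 at 39.5 TPM, which are group C SOX factors. FOXA3, the remaining FOXA paralogue, had 1, 6, 0 and 7 counts, so FOXA1 was the FOXA gene with the reads in this line. In the NK2 family, the cardiac homeobox gene NKX2-5 averaged 12.9 TPM against 0 counts for NKX2-1. Of 30 relatives, 17 were expressed, 8 were at trace level and 5 were silent.

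**Figure D2:**
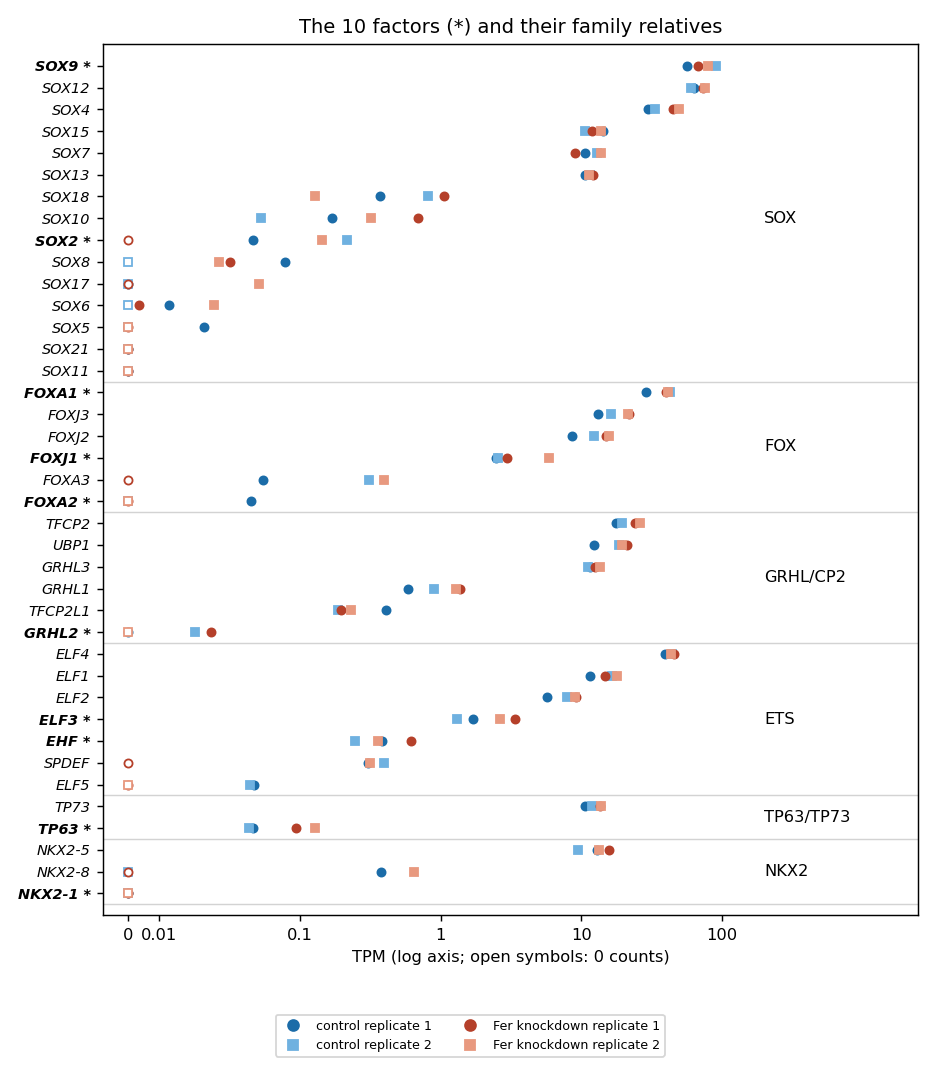
TPM on a log axis for the 10 factors (bold, with asterisks) and relatives of the same families, 1 symbol per library, open symbols for 0 counts. In the SOX, FOX, grainyhead and TP63/TP73 families the silent or trace members sit below relatives at 10 TPM or more, such as SOX12, FOXJ3, GRHL3 and TP73.

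The comparison between groups asked whether depletion of Fer moved these factors. FER mRNA did not bear out the label: controls held 16.3 and 21.2 CPM, libraries labelled Fer knockdown 17.8 and 20.1 CPM, with a log2 difference of 0.02 ± 0.17 (SE, edgeR adjusted p = 0.976). Directions below are therefore those of the label only. Library totals ran from 21422976 to 25169713 counts. The mitochondrial share of counts was 16.9% and 19.4% in control and 9.62% and 9.37% in the other group, and the fit was repeated with the mitochondrial chromosome left out. The log2 fold changes of the 5 tested factors were then -0.45 for SOX9, -0.25 for FOXA1, 0.56 for ELF3, 0.38 for FOXJ1 and 0.18 for EHF, each close to the value below, and 0 of 5 passed. Other differences that may go with this share were not tested. In bulk RNA, fewer cells of a type and less RNA per cell cannot be told apart.

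Of the 10 factors, 5 passed the filter on low counts, which needed enough reads in the libraries of a group, and 0 of these 5 passed an adjusted p of 0.05. Of 15336 genes tested, 0.646% passed, 0.28% with a higher and 0.365% with a lower level under the Fer knockdown label. With an unadjusted p under 0.05 there was 1, ELF3, against 17.7% of all genes tested. ELF3 averaged 4.57 ± 0.794 CPM in control and 6.82 ± 1.13 CPM under the Fer knockdown label (SD, n = 2 per group). Its log2 fold change was 0.57 ± 0.23 (SE), with 95% limits of 0.05 and 1.10, and missed the threshold (edgeR, adjusted p = 0.242). It was the only tested factor whose groups did not overlap, as was true of 49.2% of all tested genes.

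SOX9 and FOXA1 had fold changes below 0 that also missed the threshold. SOX9 averaged 122 ± 41.5 CPM in control and 90.2 ± 11.0 CPM under the Fer knockdown label (SD, n = 2 per group). The log2 difference was -0.44 ± 0.21 (SE), with 95% limits of -0.90 and 0.02 and an edgeR adjusted p = 0.301. For FOXA1 the averages were 66.9 ± 19.0 and 56.5 ± 2.05 CPM (SD, n = 2 per group) and the log2 difference was -0.24 ± 0.18 (SE), with 95% limits of -0.65 and 0.16 and an edgeR adjusted p = 0.534. Both values turned on the controls. Without control replicate 1 the log2 fold changes were -0.76 for SOX9 and -0.51 for FOXA1, each past the threshold (adjusted p = 4.6e-18 and 1.89e-06, edgeR), and ELF3 at 0.76 passed as well (adjusted p = 0.0162), in a fit that called 4734 genes in all. Without control replicate 2, SOX9 was at -0.068, FOXA1 at 0.058 and ELF3 at 0.38, and 0 of the 5 passed (adjusted p = 0.299 to 0.930). Over the 12 alternatives the edgeR, DESeq2 or limma-voom adjusted p ran from 4.6e-18 to 0.964 for SOX9, from 1.89e-06 to 1.00 for FOXA1 and from 0.0162 to 0.963 for ELF3.

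The intervals for FOXJ1 and EHF were wide. FOXJ1 differed by 0.39 ± 0.34 on the log2 scale (SE; 95% limits -0.37 and 1.15, edgeR adjusted p = 0.602), a value that was -0.21 when Fer knockdown replicate 2 was left out. EHF differed by 0.19 ± 0.48 (SE; 95% limits -0.88 and 1.27, edgeR adjusted p = 0.883), and was at -0.12 without control replicate 2 and at -0.23 without replicate 1 of the Fer knockdown label. On the fold scale the 5 intervals allowed 0.536 to 1.01 for SOX9, 0.637 to 1.12 for FOXA1, 1.04 to 2.14 for ELF3, 0.772 to 2.22 for FOXJ1 and 0.542 to 2.40 for EHF. A change of more than 2-fold down was thus outside the interval of every tested factor, and a change of more than 2-fold up was outside those of SOX9 and FOXA1. In a fit with no filter, which tested 9 factors, TP63 was at 0.86 (adjusted p = 0.828, edgeR) and 0 passed.

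**Figure D3:**
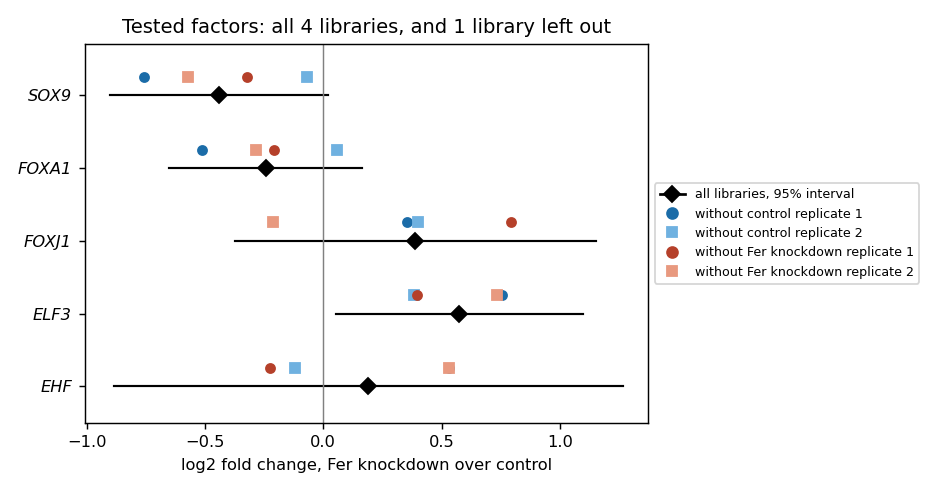
Log2 fold change of the 5 tested factors, with the libraries labelled Fer knockdown over control. Diamonds and bars give the value and 95% interval from all 4 libraries, and coloured symbols give the value with 1 library left out, which for SOX9 spread from -0.76 to -0.068.

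Among 135 tested genes of the companion lists below, those closest to each expressed factor over the 4 libraries were found by the Euclidean distance between centred log2 CPM profiles. For SOX9 they were ZEB1 and ZEB2 (distances 0.113 and 0.142), repressors of epithelial genes, and ZEB1 measured 11.9 and 18.1 CPM in control, then 10.7 and 12.6 CPM under the Fer knockdown label. For FOXA1 they were DST and ITGA6 (0.0946 and 0.109), which encode hemidesmosome proteins. ELF3 was closest to HOPX and SERPINB5 (0.172 and 0.212), and FOXJ1 to EPCAM and NFIB (0.356 and 0.446). HOPX was at trace level, with 9 and 5 counts in control and 15 and 13 under the Fer knockdown label. A value of 0.5 was added to each CPM before the log, which shrinks differences at so low a level, so its distance says little. SOX9, FOXA1 and the 4 genes closest to them shared a highest value in control replicate 2. With 4 libraries such a likeness is a description only.

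Genes of the cell types and programmes around these factors, their family relatives included, were read from 10 lists. These lists hold between 11 and 30 genes, and the share expressed ranged from 13.0% to 72.7%. Of 23 club and goblet cell genes, the secretory products of the conducting airway, 3 were expressed (13.0%), and 5 had 0 counts in all libraries. MUC1 at 26.7 TPM and the gel-forming mucin genes MUC5AC at 2.99 and MUC5B at 0.966 TPM were these 3. SCGB1A1, the club cell secretoglobin, had 1, 4, 0 and 1 counts. Of 14 genes of neuroendocrine cells, ionocytes and tuft cells, 2 were expressed, RCOR2 and CHGB, at 2.94 and 1.95 TPM.

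Alveolar genes, several of which NKX2-1 activates, were expressed in 8 of 17. The 3 most abundant were CAV1 at 161 TPM, CAV2 at 21.7 TPM and the surfactant lipid transporter gene ABCA3 at 20.9 TPM, and caveolins are also made by many other cell types. The surfactant protein genes were not among the 8, with 5, 3, 2 and 3 counts for SFTPB and 11, 7, 13 and 17 for SFTPC. Ciliated cell genes were expressed in 6 of 23 (26.1%). The 6 were CCNO at 31.9 TPM, CAPS at 8.59, MCIDAS at 5.32, RFX2 at 4.02, CCDC40 at 2.00 and RFX3 at 1.85 TPM. GMNC, of the same list, had 0 counts in every library. The axonemal dynein gene DNAH9 had 1, 1, 2 and 0 counts and DNAI1 had 21, 13, 13 and 28.

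Basal cell genes were expressed in 17 of 25, and TP63 was at trace level. The adhesion genes ITGB4, at 184 TPM, and LAMB3, at 42.8 TPM, and the calcium-binding protein gene S100A2, at 61.5 TPM, were the highest that could be tested. The keratin gene KRT15 averaged 23.1 TPM and NGFR 10.6 TPM. The classical keratins of the basal layer were nearly absent, with 3, 8, 12 and 5 counts for KRT5 and 2, 1, 0 and 1 for KRT14. Epithelial junction and splicing genes, the territory of GRHL2, ELF3 and EHF, were expressed in 18 of 26. The keratin genes KRT8 and KRT18 averaged 744 and 741 TPM, whereas the E-cadherin gene CDH1 averaged 4.09 TPM and the splicing regulator ESRP1 had 15, 4, 5 and 2 counts. Mesenchymal genes were expressed in 16 of 22, with VIM, FN1 and ACTA2 at 587, 351 and 67.6 TPM.

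Of 11 cartilage genes that SOX9 is known to activate, 4 were expressed, led by the collagen gene COL9A3 at 15.1 TPM, and 4, including the aggrecan gene ACAN, had 0 counts in every library. Other transcription factors of lung epithelium were expressed in 18 of 25, with CEBPD, CEBPB and YAP1 at 175, 146 and 48.8 TPM. Markers of cells outside the epithelium were checked as well. The 4 endothelial markers in the table summed to 2.12 to 2.98 CPM in control and 1.89 to 2.22 CPM in libraries labelled Fer knockdown, with 0 of 4 expressed. The 5 leukocyte markers summed to 0.440 to 0.876 and 0.113 to 0.176 CPM, with 0 of 5 expressed. The 7 fibroblast markers summed to 106 to 117 and 89.9 to 92.6 CPM, of which COL1A1 and PDGFRB were expressed while LUM and DCN had 0 counts.

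**Figure D4:**
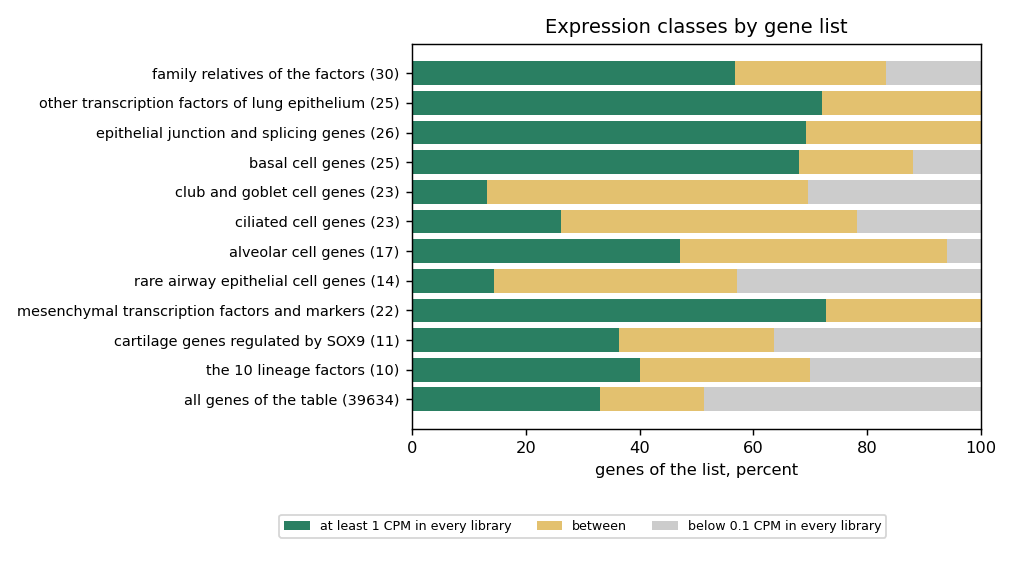
Percent of genes in each list that were expressed, at trace level or silent, with the number of genes of the list in the table in parentheses. The club and goblet list has 13.0% expressed genes and the mesenchymal list 72.7%, against 33.0% of all genes in the table. The table includes 15655 genes with 0 counts in every library, whereas the lists hold chosen genes, so the shares are not like for like.

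Between the groups, 1 of the 135 tested genes of these lists passed, where 0.646% of all genes tested did, so the count is near the background. JAG2, a Notch ligand of basal cells, rose from 21.2 and 16.8 CPM in control to 33.8 and 35.8 CPM under the Fer knockdown label, by 0.87 ± 0.16 on the log2 scale (SE, edgeR adjusted p = 0.0474). It shares 7.33% of its exonic bases with other genes. JAG2 missed the threshold when replicate 1 of the Fer knockdown label (edgeR adjusted p = 0.133), replicate 2 (0.334) or the mitochondrial chromosome (0.0521) was left out. It was 1 of 20 tested basal genes, whose median log2 fold change was -0.05, against 0.01 over all genes tested. Of the 20, JAG2 included, 9 were above 0 and 11 below. An unadjusted edgeR p under 0.05 was reached by 7 of the 20, 5 higher and 2 lower, against 17.7% of all genes tested. The median near 0 thus covers differences in both directions.

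In the other 9 lists 0 genes passed. Over all 15336 genes tested, 7959 log2 fold changes were above 0 and 7377 below. TFAP2A, an AP-2 factor of surface ectoderm, was at -0.78 ± 0.15 (SE, edgeR adjusted p = 0.0552), with 97.6 and 130 CPM in control against 65.1 and 67.7 CPM, and an exon overlap of 16.7%. The epithelial list had a median of 0.16 with 15 of 21 genes above 0, and its 2 smallest p belonged to ESRP2 at 0.50 (edgeR adjusted p = 0.142) and KRT7 at -0.40 (0.169), of opposite sign. The mesenchymal list had a median of -0.37 with 14 of 17 below 0, and its smallest p belonged to VIM at -0.59 (adjusted p = 0.0549), with 24.4% exon overlap. Without control replicate 2 those medians were 0.03 and -0.06. The SOX9 cartilage list had a median of 0.42 with 6 of 6 above 0, and its smallest p belonged to COL9A3 at 0.45 (edgeR adjusted p = 0.162). SOX9 itself was below 0 but missed the threshold, and a link between the 2 was not tested. Ciliated genes had a median of 0.02, which ran from -0.10 to 0.21 with 1 library left out. The 2 smallest p in that list belonged to RFX2, a ciliary transcription factor, at -0.54 (edgeR adjusted p = 0.136), and CCDC40, needed for ciliary dynein assembly, at 0.49 (0.256). The alveolar genes had a median of 0.04.

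**Figure D5:**
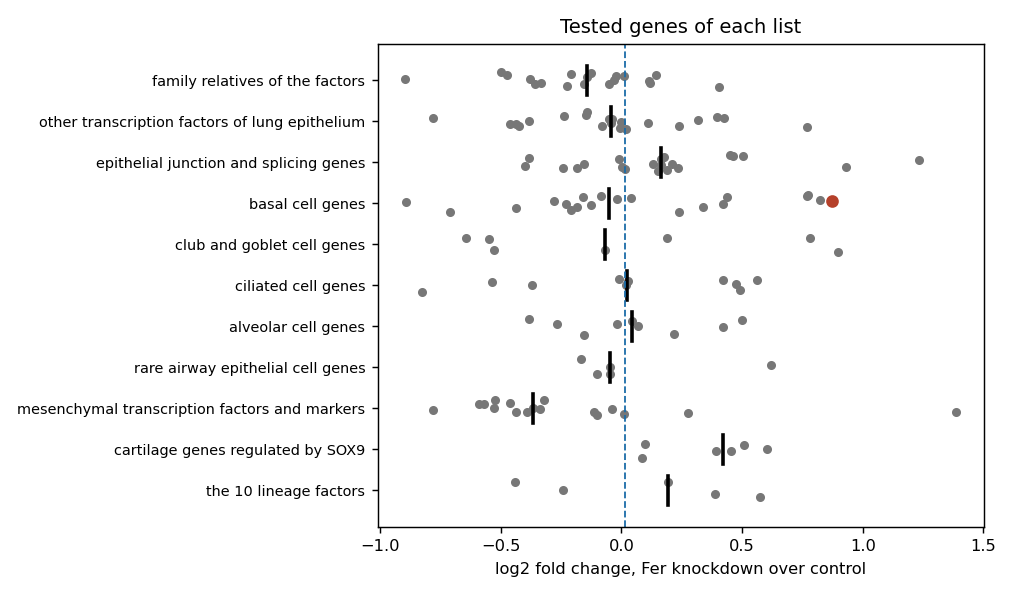
Log2 fold change of each tested gene by list, with black bars at the list median, a dashed line at the median of all tested genes (0.01) and the only gene past the threshold, JAG2, in red. The mesenchymal median lies at -0.37 and the cartilage median at 0.42.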

How the data were processed

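Poly(A) RNA of 4 BEAS-2B libraries was sequenced after TruSeq preparation, per the labels' protocols. Raw read counts per gene were deposited with gene lengths, per the file headers, and HISAT2, featureCounts, DESeq2, hg19 and mm10 are named, without roles, in the submitters' processing notes. The column of Fer knockdown replicate 1 has a shortened name and was assigned by its group and number, which fit 1 sample alone. Of 39635 rows, 1 held no values. Genes were tested with edgeR 4.0.16 (R 4.3.3), with filterByExpr defaults (15336 genes), TMM factors (0.940 and 0.949 for control, 1.06 and 1.06 for Fer knockdown), the quasi-likelihood test, two-sided, and Benjamini-Hochberg adjustment at 0.05. The model had 2 residual degrees of freedom. CPM is on the TMM scale. TPM, from the counts and the deposited lengths, compares genes and not groups.

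The 10 factors and all gene lists were chosen with earlier results of these data known. Named list genes were the 3 highest in TPM among those tested, those past the threshold, or the 2 of smallest p where none passed, and the 2 genes nearest in profile to each expressed factor; every other list gene named with a value was chosen after its values were seen. Some list genes that this rule names are not reported here. Chromosomes and exon overlaps on either strand came from GENCODE 29 by identifier, which is of another build than hg19, so gene coordinates are not given. Replicate pairs differed beyond sampling noise (chi-square per degree of freedom 28.9 in control and 5.35 in Fer knockdown). The fit was tested on simulated counts. Alternatives were other scalings, DESeq2 1.42.0, limma-voom (limma 3.58.1), other filters, the replicate block, omission of mitochondrial genes, and each library left out.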

Additional observations from a re-analysis of the deposited data

How the results depend on the processing

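The number of expressed factors was 4 under 2 CPM, 1 TPM, unscaled CPM and each library left out, and 5 at 0.5 CPM. The number of factors past the test was 0 under every alternative run with all 4 libraries, and ran from 0 to 3 with 1 library left out. Calls over all genes were 99, and became 443 with library totals alone (396 higher, 47 lower, against 43 and 56), 584 in DESeq2, 178 in limma-voom, 993 with no filter and 990 with the replicate block, and ran from 56 to 4734 with 1 library left out, where the lone library of a group is assumed to vary like the pair of the other group. With library totals alone, the median over all tested genes was 0.18 in place of 0.01 on the log2 scale. The replicate numbers are not stated to pair the libraries, and deviations of same-numbered libraries had a correlation over genes of 0.04. With the replicate block, 0 of the 5 factors passed (adjusted p for SOX9 0.0973).

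Signs changed for FER (-0.16 without control replicate 1 and -0.08 without Fer knockdown replicate 2, range with 1 library left out -0.16 to 0.19), FOXA1 (0.058 without control replicate 2, range -0.51 to 0.058), EHF (-0.12 without control replicate 2 and -0.23 without Fer knockdown replicate 1, range -0.23 to 0.53) and FOXJ1 (-0.21 without Fer knockdown replicate 2, range -0.21 to 0.80), and the cause was not tested. SOX9 kept its sign in 12 of 12 alternatives (-0.76 to -0.068), and so did ELF3 (0.38 to 0.76). EHF and FOXJ1 were not tested with the filter of 5 CPM. Depth limits the 5 factors with 19 counts or fewer in all, for which no difference between groups was detectable.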
